A study of Mus musculus with 6 samples.

Results

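Lipid droplet and triglyceride storage genes were examined in livers of wild-type (WT) and chromogranin A knockout (CgA-KO) mice. The set held 10 genes, taken by symbol from a deposited table of 32212 gene rows, and all 10 were found and passed the filter on low counts that left 13867 genes. They are the perilipins Plin2, Plin3, Plin4 and Plin5, the CIDE genes Cideb and Cidec, the lipase gene Pnpla2 with its inhibitor G0s2, and the acyltransferase genes Dgat1 and Dgat2. The 3 WT and 3 CgA-KO livers came from male mice on the C57BL/6 background that ate normal chow under a cycle of light and dark, and the labels give an age of 2 yr for every library. CgA is the prohormone encoded by Chga, and the comparison asks how its loss goes with the liver transcriptome of old mice. The labels do not describe how the gene was deleted, and neither the hour of collection nor the feeding state is given.

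Hepatocytes store surplus fatty acids as triglyceride in lipid droplets, which consist of a neutral lipid core under a single layer of phospholipid. DGAT1 and DGAT2 carry out the last step of triglyceride synthesis, perilipins coat the droplet and govern access of lipases to it, and CIDE proteins promote droplet growth or the loading of lipid onto lipoprotein particles. Adipose triglyceride lipase (ATGL), encoded by Pnpla2, removes the first fatty acid, and G0S2 binds and inhibits ATGL. Several of these genes are known targets of the nuclear receptor PPAR-alpha or of insulin signalling, and their hepatic transcripts are known to move with feeding and the time of day.

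Total counts ranged from 10558616 in WT replicate 1 to 31087453 in WT replicate 2, so a count of 3 corresponded to between 0.0965 and 0.284 CPM (a count scaled to a library total of 1e+06), for counting error only. Every member lay far above that level, with 114 counts of Cidec in WT replicate 3 as the lowest value. Chga had 0 counts in all 6 libraries and could not check the genotype labels. Levels below are CPM with trimmed-mean (TMM) scaling of the libraries, errors are standard deviations over 3 livers, and genotypes were compared by quasi-likelihood F tests in edgeR, adjusted after Benjamini and Hochberg over all 13867 genes. A gene is said to be called at an adjusted p under 0.05, and a log2 fold change is CgA-KO minus WT. With 3 livers a genotype, 0.1 is the smallest p of the exact permutation test. RNA came from 3 mice of each genotype, and p-values measure the spread between those livers.

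None of the 10 storage genes was called between the genotypes (0 of 10 in edgeR's test, 3 at an unadjusted p under 0.05), where 12.4% of all genes tested were called and 29.1% had an unadjusted p under 0.05. Dgat2 was lowest in adjusted p at 0.0730, followed by Plin5 at 0.0738 and G0s2 at 0.10, with Dgat2 and G0s2 at lower and Plin5 at higher mean levels in CgA-KO livers. DESeq2 called these 3 genes (adjusted p of 0.0126 for Dgat2, 0.0478 for Plin5 and 0.0184 for G0s2), against 17.2% of the genes it tested, and limma-voom called 0. On TMM-scaled CPM the genotypes did not overlap in 3 members, Plin3, Plin5 and Dgat2, where 33.6% of all genes tested did not overlap. With libraries scaled by size alone Plin3 did overlap. The median log2 fold change of the 10 genes was -0.30, beside -0.01 over all genes tested, with 3 of 10 positive and 7 negative. A single sign over all scalings did not hold for Cideb and Dgat1, whose log2 fold changes of -0.24 and -0.03 became 0.04 and 0.24 when libraries were scaled by size alone. That scaling moved the median of all genes tested to 0.26, and the genes it called were 1293 higher and 200 lower, beside 1193 higher and 533 lower with TMM.

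**Figure D1:**
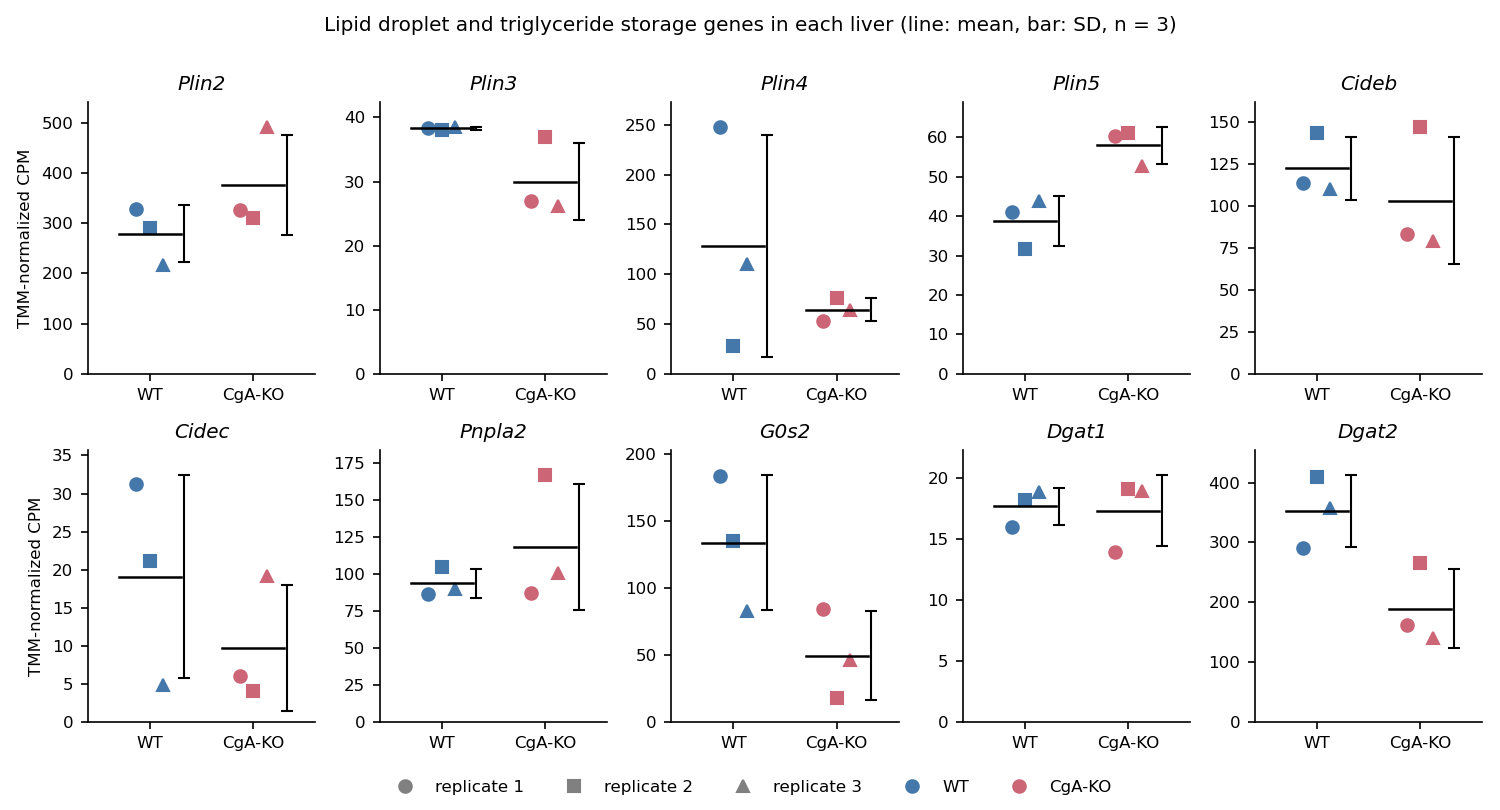
TMM-normalized CPM of the 10 storage genes in each liver, on linear axes that start at 0, with WT in blue, CgA-KO in red and the replicate given by the symbol. Lines are means and bars are SD over 3 livers. All CgA-KO values of Dgat2 (140.5 to 265 CPM) lie under all WT values (291 to 409.9 CPM), while Plin4 and Cidec spread widely within WT.

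**Figure D2:**
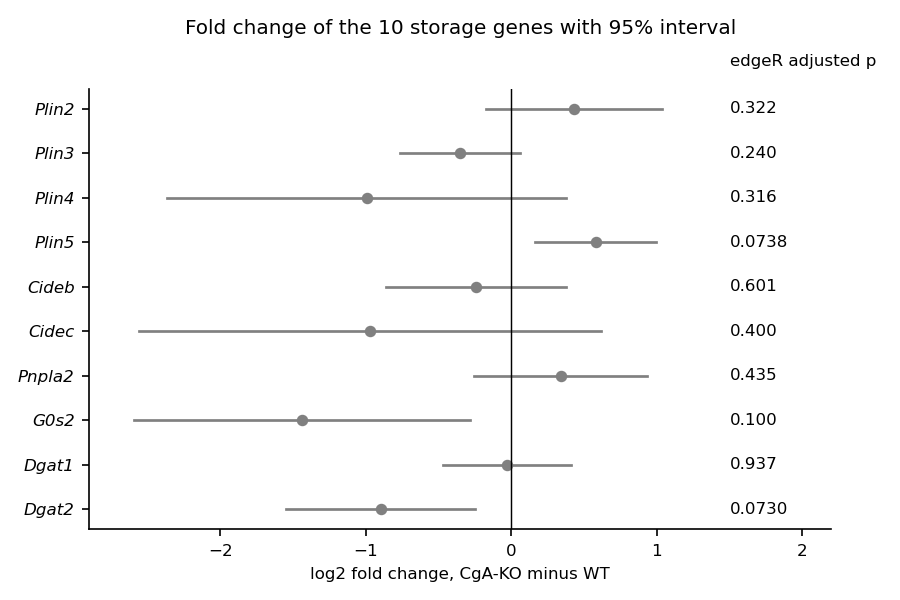
Log2 fold change (CgA-KO minus WT, x axis) of the 10 storage genes with its 95% interval from edgeR's fit and the adjusted p at the right. The intervals of Plin5, G0s2 and Dgat2 lie on one side of 0 before adjustment for the number of genes tested, and no adjusted p is under 0.05.

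Triglyceride synthesis was represented by the transcripts of both DGAT enzymes, which are unrelated in sequence and catalyse the same reaction. Dgat2 (chromosome 7 of GRCm38, 99153658 to 99182719) was at 291, 409.9 and 358 CPM in WT replicates 1, 2 and 3, and at 162, 265 and 140.5 CPM in CgA-KO replicates 1, 2 and 3. Every CgA-KO liver lay below every WT liver, with means of 353 ± 59.9 and 189 ± 66.4 CPM (exact permutation test, p = 0.1, the smallest that is possible). On the log2 scale the genotypes differed by -0.90 (standard error 0.29, 95% interval -1.54 to -0.25, edgeR adjusted p = 0.0730). CgA-KO replicate 2 was the highest of its genotype, and without it the log2 fold change was -1.18 and the gene was called (adjusted p = 0.0347 in edgeR). Without any other single library the edgeR adjusted p was between 0.0585 and 0.228.

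Dgat1 (chromosome 15, 76502015 to 76511953) was at 15.9, 18.2 and 18.8 CPM in WT and at 13.9, 19.0 and 18.9 CPM in CgA-KO replicates 1, 2 and 3. The genotypes overlapped throughout, and the log2 fold change of -0.03 had a 95% interval from -0.47 to 0.41 (edgeR adjusted p = 0.937). The ratio of the DGAT transcripts within a library does not depend on how libraries are scaled. As log2 of the counts it was 4.18, 4.49 and 4.24 in WT and 3.54, 3.80 and 2.89 in CgA-KO replicates 1, 2 and 3. All CgA-KO livers had less Dgat2 per Dgat1 than all WT livers, with a difference of -0.90 on the log2 scale (exact permutation test, p = 0.1, the smallest that is possible). Leaving out each library in turn kept this difference between -1.09 and -0.64.

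Perilipins differ in where they act. PLIN2 is the main droplet coat protein of hepatocytes and needs lipid for its stability, PLIN3 moves between cytosol and small nascent droplets, PLIN4 is best known from fat and muscle, and PLIN5 is typical of oxidative tissue and links droplets with mitochondria. Plin5 (chromosome 17, 56111601 to 56117596) was at 41.0, 31.7 and 43.8 CPM in WT and at 60.4, 61.0 and 52.7 CPM in CgA-KO replicates 1, 2 and 3. The genotypes did not overlap, and the means of 38.9 ± 6.33 and 58.0 ± 4.65 CPM (n = 3 livers each) differed by 0.58 on the log2 scale (standard error 0.18, 95% interval 0.16 to 1.00, edgeR adjusted p = 0.0738). The exact permutation test gave p = 0.1. In fits that each left out 1 library the log2 fold change of Plin5 stayed between 0.45 and 0.67, and its edgeR adjusted p between 0.0880 and 0.190.

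Plin2 (chromosome 4, 86648386 to 86670060) was at 329.5, 289.8 and 218 CPM in WT and at 326, 311 and 492 CPM in CgA-KO replicates 1, 2 and 3, so that WT replicate 1 lay above 2 of the CgA-KO livers. Its log2 fold change was 0.43 with a 95% interval from -0.17 to 1.04 (edgeR adjusted p = 0.322). CgA-KO replicate 3 alone set much of this value, which was 0.22 without it.

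Plin3 (chromosome 17, 56277476 to 56292873) was almost identical in the WT livers after TMM scaling, at 38.4, 38.1 and 38.5 CPM. The CgA-KO livers were all lower on that scale, at 26.9, 36.9 and 26.2 CPM, but CgA-KO replicate 2 missed the WT range by little. Both observations rest on the TMM factors, 0.756 in WT replicate 2 and 0.935 to 1.12 in the other libraries. CgA-KO replicate 2 had 1163 counts of 28672817, a larger part than the 895 of 31087453 in WT replicate 2. By library size alone Plin3 thus overlapped between the genotypes. Its log2 fold change was -0.35 with a 95% interval from -0.77 to 0.06 (edgeR adjusted p = 0.240), and -0.09 when scaled by library size alone.

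Plin4 (chromosome 17, 56100591 to 56109803) varied more among WT livers than between genotypes. Its levels were 248, 27.6 and 110.2 CPM in WT and 52.97, 76.3 and 63.9 CPM in CgA-KO replicates 1, 2 and 3, so that the WT livers enclosed the whole CgA-KO range. The highest WT liver was 8.98 times the lowest, a span that 2.47% of the genes tested exceeded in WT, where the median gene had a span of 1.52. The log2 fold change of -0.99 (95% interval -2.37 to 0.38, edgeR adjusted p = 0.316) was -0.08 without WT replicate 1 and was -1.48 without WT replicate 2.

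Plin4, Plin5 and Plin3 lie in that order on the same strand of chromosome 17, with 1797 bases between Plin4 and Plin5 and 159879 bases from Plin5 to Plin3. WT replicate 2 was the lowest WT liver and CgA-KO replicate 2 the highest CgA-KO liver in all 3 genes. Plin3 and Plin5 ordered the livers alike within each genotype, although the WT values of Plin3 were almost identical after TMM scaling. Plin4 had another order in both, highest in WT replicate 1 and lowest in CgA-KO replicate 1. In CgA-KO livers, where Plin5 exceeded every WT value, Plin4 stayed within the WT range.

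Per kilobase of exon, Plin2 made up most of the perilipin transcripts in every liver. Its share of the summed CPM per kilobase of Plin2, Plin3, Plin4 and Plin5 was 56.3%, 73.3% and 55.2% in WT and 67.3%, 62.9% and 76.4% in CgA-KO replicates 1, 2 and 3. Plin4 took 25.8%, 4.25% and 17.0% in WT and 6.64%, 9.39% and 6.03% in CgA-KO livers. The share of Plin5 was 11.8%, 13.5% and 18.7% in WT and 20.9%, 20.8% and 13.8% in CgA-KO livers. The genotypes overlapped in each of these shares, and the WT livers that were low in Plin2 share, replicates 1 and 3, were those high in Plin4. Shares of a sum trade off by construction, and in CPM Plin2 was highest among WT livers in replicate 1. The log2 ratio of Plin2 to Plin3 counts was 2.84 ± 0.31 in WT and 3.63 ± 0.58 in CgA-KO livers (exact permutation test, p = 0.2), with CgA-KO replicate 2 at 3.07 inside the WT range.

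**Figure D3:**
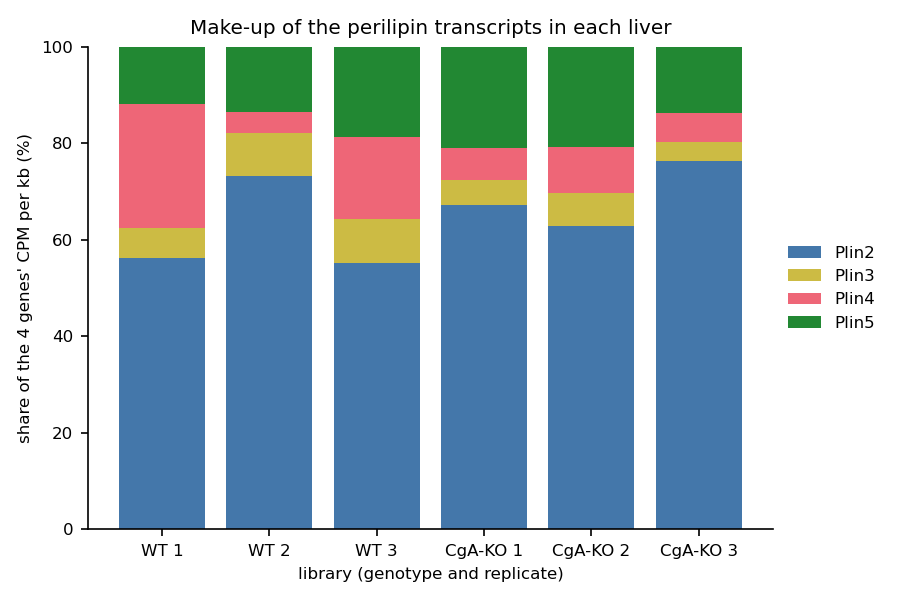
Share of each perilipin gene in the summed CPM per kilobase of exon of the 4 genes (y axis, %), 1 bar for each liver. Plin2 holds between 55.2% and 76.4%, and the Plin4 share runs from 4.25% in WT replicate 2 to 25.8% in WT replicate 1.

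The CIDE genes are both thought to act at droplet contact sites, Cideb in the lipidation of very low density lipoprotein of hepatocytes and Cidec in the growth of droplets in fat and in fatty liver. Cidec (chromosome 6, 113424634 to 113435760) was at 31.3, 21.2 and 4.83 CPM in WT and at 5.99, 3.996 and 19.1 CPM in CgA-KO replicates 1, 2 and 3. Both genotypes held livers of high and of low Cidec, with the highest liver 6.47 times the lowest in WT and 4.79 times in CgA-KO. Only 3.53% of the genes tested had a wider span in WT and 3.00% in CgA-KO. The log2 fold change of Cidec was -0.97 with a 95% interval from -2.56 to 0.62 (edgeR adjusted p = 0.400), and single libraries moved it from -0.37, without WT replicate 1, to -1.90, without CgA-KO replicate 3.

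Cideb (chromosome 14, 55754050 to 55758458) was at 114, 144 and 110.1 CPM in WT and at 83.6, 147 and 79.2 CPM in CgA-KO replicates 1, 2 and 3. CgA-KO replicate 2 was the highest of all 6 livers and the other CgA-KO livers were the lowest. For Cideb the log2 fold change was -0.24 with a 95% interval from -0.86 to 0.37 (edgeR adjusted p = 0.601). In the annotation, 76.3% of the exonic bases of Cideb also lie in exons of Nop9 on the opposite strand, so its counts are uncertain unless the quantification used strand, which is not stated in the sources used here. The log2 ratio of Cidec to Cideb was -3.04 ± 1.34 in WT and -3.68 ± 1.58 in CgA-KO livers and did not separate the genotypes (exact permutation test, p = 0.7). Its difference of -0.64 turned to 0.12 without CgA-KO replicate 2.

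For lipolysis the transcripts of the ATGL gene and of its inhibitor gene were read, while lipase activity is not part of these data. Pnpla2 (chromosome 7, 141455198 to 141460743) was at 86.3, 105 and 89.8 CPM in WT and at 87.5, 167 and 101 CPM in CgA-KO replicates 1, 2 and 3. CgA-KO replicate 2 stood above the other 5 livers, which lay between 86.3 and 105 CPM. The log2 fold change of Pnpla2 was 0.34 with a 95% interval from -0.26 to 0.93 (edgeR adjusted p = 0.435). It was 0.05 when CgA-KO replicate 2 was left out.

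G0s2 (chromosome 1, 193272161 to 193273217) was at 184, 135 and 82.8 CPM in WT and at 84.4, 17.6 and 46.6 CPM in CgA-KO replicates 1, 2 and 3. The genotypes met at WT replicate 3 and CgA-KO replicate 1, and CgA-KO replicate 2 was the lowest liver. Mean levels were 134 ± 50.5 and 49.5 ± 33.5 CPM, and the log2 fold change of -1.44 (standard error 0.51, 95% interval -2.59 to -0.28) was the largest in size of the 10 genes (edgeR adjusted p = 0.10). It ran from -0.99 without CgA-KO replicate 2 to -2.02 without CgA-KO replicate 1, with an edgeR adjusted p between 0.0643 and 0.271 when each library was left out in turn.

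The ratio of inhibitor to lipase transcripts within a library joined these values. The log2 ratio of G0s2 to Pnpla2 was 1.09, 0.37 and -0.12 in WT and -0.05, -3.24 and -1.11 in CgA-KO replicates 1, 2 and 3. WT replicate 3 and CgA-KO replicate 1 overlapped by a small margin, and the difference of -1.92 was not past the threshold (exact permutation test, p = 0.2). CgA-KO replicate 2, which had the most Pnpla2 and the least G0s2 of all livers, carried much of it, since the difference was -1.03 without that liver.

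**Figure D4:**
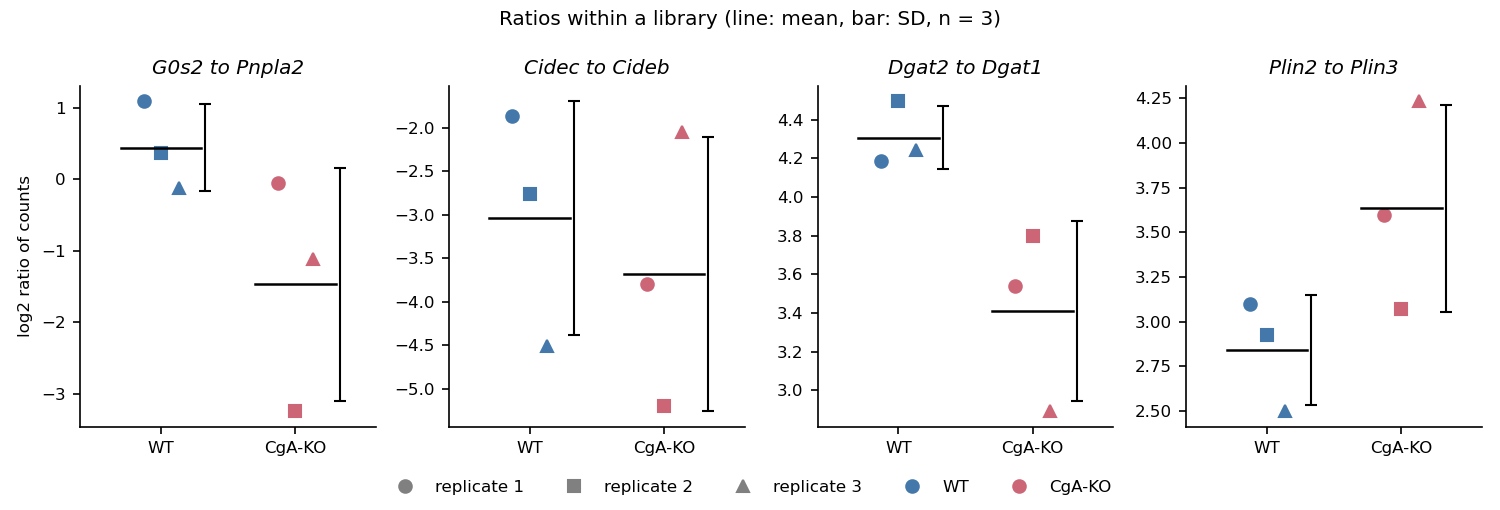
Log2 ratios of counts within a library for 4 gene pairs (y axes, scaled separately and not starting at 0), with WT in blue, CgA-KO in red, the replicate given by the symbol, lines at the means and bars for SD over 3 livers. Only the ratio of Dgat2 to Dgat1 separates the genotypes, at 4.18 to 4.49 in WT and 2.89 to 3.80 in CgA-KO livers.

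Single livers shaped several members at once. Among CgA-KO livers, replicate 2 was the highest in Plin3, Plin4, Plin5, Cideb, Pnpla2, Dgat1 and Dgat2 and the lowest in Plin2, Cidec and G0s2. Among WT livers, replicate 1 was the highest in Plin2, Plin4, Cidec and G0s2. WT replicate 1 was also the library with the fewest counts, and CgA-KO replicate 2 had the highest summed level of neutrophil markers (329 CPM, against 27.0 and 31.8 CPM in CgA-KO replicates 1 and 3). The part of depth or of these cells in the members' values was not tested.

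Levels of different genes were compared only per kilobase of exon in the annotation. In WT livers G0s2 was highest at 154 ± 58.0 CPM per kilobase, followed by Dgat2 at 114 ± 19.4, Cideb at 82.3 ± 12.5 and Plin2 at 79.4 ± 16.2 CPM per kilobase. G0s2 and Dgat2 differed by less than the spread of G0s2, with Dgat2 the higher of them in WT replicate 3, and Cideb and Plin2 differed by less than their spread. In CgA-KO livers Plin2 came first at 107 ± 28.7 CPM per kilobase, and G0s2, at 56.9 ± 38.5, came after Plin2, Cideb and Dgat2. Dgat1, at 5.78 ± 0.50 in WT and 5.66 ± 0.95 CPM per kilobase in CgA-KO, was among the lowest 2 of the 10 genes in both genotypes. Annotated exon length stands in for the transcripts that the livers used, which were not analysed here.

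Other genes of triglyceride handling came from 5 lists with 51 genes in all, of which 49 passed the filter. Of these, 7 were called, all of them lower in CgA-KO livers, or 14.3% of the 49, where 3.84% of all genes tested were called lower and 8.60% were called higher. Their median log2 fold change was -0.24, beside -0.01 over all genes tested. The called genes were the droplet assembly genes Fitm1, Acsl3 and Cidea, the lipase genes Ces1f, Ces1d and Mgll, and the transcription factor gene Srebf1.

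**Figure D5:**
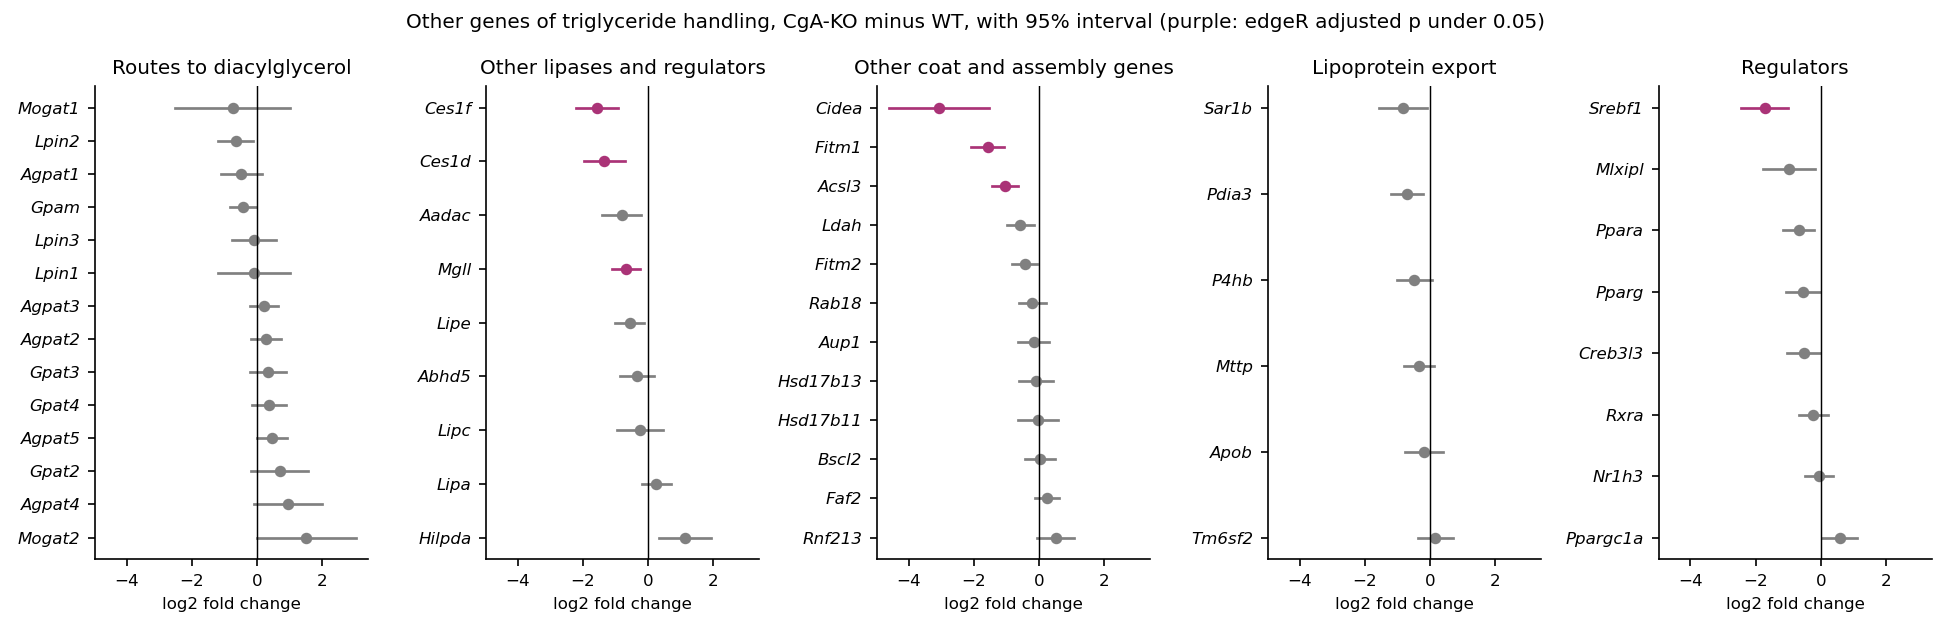
Log2 fold change (CgA-KO minus WT, x axis) with 95% intervals for the 49 tested genes of 5 lists of triglyceride handling, with genes called by edgeR's test in purple. The called genes are all negative, and none of them belongs to the routes to diacylglycerol or to lipoprotein export.

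Fitm1 and Acsl3 held their calls in all 13 alternative settings. Fitm1 encodes a membrane protein of the endoplasmic reticulum that partitions triglyceride into nascent droplets, and it was at 38.9, 56.2 and 33.5 CPM in WT and at 12.7, 15.4 and 15.1 CPM in CgA-KO replicates 1, 2 and 3. It fell by 1.57 on the log2 scale (0.22 as the standard error, edgeR adjusted p = 0.00553), and no CgA-KO liver came near the WT range. Acsl3, which encodes an acyl-CoA synthetase of early droplets, was at 30.0, 31.0 and 25.5 CPM in WT and at 14.3, 12.8 and 14.8 CPM in CgA-KO livers. Acsl3 fell by 1.04 on the log2 scale (0.17 as the standard error, edgeR adjusted p = 0.00831). Cidea, a CIDE gene known best from brown fat, was low throughout, at 7.70, 2.98 and 2.50 CPM in WT and at 0.279, 0.254 and 1.03 CPM in CgA-KO livers. Its log2 fold change of -3.06 (edgeR adjusted p = 0.0218) was no longer called without WT replicate 2 (0.0509), WT replicate 3 (0.0512), CgA-KO replicate 1 (0.0876) or CgA-KO replicate 2 (0.0829). The other 9 tested genes of this list, Plin1 having failed the filter, were not called.

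Ces1d and Ces1f encode carboxylesterases of the hepatocyte endoplasmic reticulum that hydrolyse triglyceride. Ces1d was at 895, 1150.0 and 989 CPM in WT and at 406, 505 and 279.8 CPM in CgA-KO replicates 1, 2 and 3, and Ces1f at 324, 577 and 437 CPM in WT and at 132, 189 and 126 CPM in CgA-KO livers. Neither gene overlapped between genotypes, and their log2 fold changes were -1.35 and -1.58 (edgeR adjusted p = 0.0174 and 0.0117). The call of Ces1d was lost without WT replicate 3 (0.0784) and without CgA-KO replicate 1 (0.0596), and that of Ces1f without WT replicate 3 (0.0503). They are close paralogs, between which the quantification could have split reads. Mgll, the monoacylglycerol lipase gene that acts at the end of the pathway that ATGL begins, averaged 178 ± 14.7 CPM in WT livers against 111 ± 10.3 CPM in CgA-KO and fell by 0.68 on the log2 scale (edgeR adjusted p = 0.0491). It was called in only 2 of 13 alternative settings, and in none of those that left out a library (edgeR adjusted p between 0.0865 and 0.188).

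Of the 14 genes on the routes to diacylglycerol, 0 were called by edgeR's test and 3 had an unadjusted p under 0.05, with 8 fold changes above and 6 below 0. The smallest p-values belonged to Lpin2, a phosphatidate phosphatase gene (log2 fold change -0.66, edgeR adjusted p = 0.105), and Gpam, which encodes the mitochondrial enzyme that starts glycerolipid synthesis (-0.43, edgeR adjusted p = 0.149). Lpin2 was at 629, 412 and 598 CPM in WT and at 337, 368 and 333 CPM in CgA-KO livers. The other gene with an unadjusted p under 0.05 was Agpat5, an acyltransferase gene named here after its values were seen, which did not overlap between genotypes and lay higher in CgA-KO (0.46, edgeR adjusted p = 0.168). Of the 14 genes DESeq2 called 1, Lpin2 (adjusted p = 0.0179), and limma-voom called 0. Of 6 genes of lipoprotein export, 0 were called by edgeR's test and 2 had an unadjusted p under 0.05. These were Pdia3, a disulfide isomerase of the endoplasmic reticulum (-0.71, edgeR adjusted p = 0.0667), and Sar1b, a GTPase of the vesicles that carry lipoproteins (-0.82, edgeR adjusted p = 0.133). DESeq2 called 1 of the 6, Pdia3 (adjusted p = 0.00680), and limma-voom called 0.

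Among 8 regulators of these genes edgeR's test and limma-voom each called 1, Srebf1, the master regulator of lipogenesis. DESeq2 called 3, Srebf1, Ppara and Mlxipl. Of the 8 log2 fold changes 7 were negative and 1 was positive. An unadjusted p under 0.05 was found in 6 of the 8, beside 29.1% of all genes tested. The genotypes did not overlap in 6 of the 8, beside 33.6% of all genes tested. Srebf1 was at 79.4, 128 and 158 CPM in WT and at 42.7, 44.0 and 23.6 CPM in CgA-KO replicates 1, 2 and 3, without overlap between genotypes. Srebf1 fell by 1.73 on the log2 scale (0.32 as the standard error, edgeR adjusted p = 0.0128), and the call was lost without WT replicate 2 (0.0513) or WT replicate 3 (0.0553). Ppara, which encodes the receptor PPAR-alpha, was at 99.0, 83.8 and 87.3 CPM in WT and at 64.4, 42.8 and 61.7 CPM in CgA-KO livers. It did not overlap between genotypes and was not called by edgeR (log2 fold change -0.68, edgeR adjusted p = 0.0666), while its DESeq2 adjusted p was 0.0225.

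Of 10 genes that respond to PPAR-alpha and fasting, 1 was called. Cyp4a10, a fatty acid hydroxylase gene, was at 644, 272 and 327 CPM in WT and at 926, 1501 and 968 CPM in CgA-KO replicates 1, 2 and 3. It rose by 1.45 on the log2 scale (edgeR adjusted p = 0.0373), a call that was lost without any single library but WT replicate 1 (edgeR adjusted p between 0.0583 and 0.162). The summed level of the 10 genes overlapped between genotypes, at 5251 to 6648 CPM in WT livers against 5730.5 to 7268 CPM in CgA-KO.

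Core clock genes drive the daily rhythm of liver transcripts. The clock list of 12 genes also held the clock output genes Dbp and Tef. Of the 12 genes 8 were called, 3 higher and 5 lower in CgA-KO livers. Arntl, which encodes the clock activator BMAL1, averaged 0.814 ± 0.383 CPM in WT livers against 16.8 ± 2.43 CPM in CgA-KO and rose by 4.44 on the log2 scale (edgeR adjusted p = 0.00164). Clock (1.03) rose too, as did Npas2, which had 3 counts in each WT library and 65 to 102 counts in CgA-KO, and Per3 (-3.16), Dbp (-2.80), Per2 (-2.74), Tef (-1.70) and Nr1d2 (-1.15) fell. Clock, Dbp and Nr1d2 each lost the call in at least 1 fit without a single library, with an adjusted p of at most 0.0962, 0.112 and 0.0777. The part of collection time or feeding in the storage genes was not tested.

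The livers carried hepatocyte transcripts in plenty, at a summed 60653 to 101317 CPM of 8 markers in WT livers against 54090.4 to 89387 CPM in CgA-KO, with 0 of 8 called by edgeR's test, 1 at an unadjusted p under 0.05, 1 called by DESeq2 and 0 by limma-voom. Of 10 markers of Kupffer cells and macrophages, which can hold lipid droplets too, 9 were called higher in CgA-KO, with a summed level of 149 to 405 CPM in WT livers against 1546 to 2057 CPM in CgA-KO. Stellate cells, which store retinyl esters in droplets, had 3 of 9 markers called higher, at a summed 232 to 295 CPM against 371 to 648 CPM. Summed levels of other markers in WT and CgA-KO livers were 145 to 195 and 157 to 214 CPM for endothelial cells (8 markers, 1 called higher and 1 lower), 9.10 to 59.7 and 70.1 to 142 CPM for T, B and NK cells (8 markers, 4 called higher), 2.33 to 9.87 and 27.0 to 329 CPM for neutrophils (2 of 3 tested markers called higher), and 118 to 291 and 333 to 476 CPM for red blood cells (4 markers, 1 called higher and 1 lower). Of 7 adipocyte markers, Lep was at 0 in every library, Adipoq and Retn had at most 3 counts and Plin1 at most 7, and the summed level of 6.30 to 22.0 CPM in WT livers against 2.73 to 6.08 CPM in CgA-KO came mainly from Adrb3 and from Cidea, which the assembly list holds too. The sums were 22.0, 6.30 and 14.3 CPM in WT and 6.08, 5.42 and 2.73 CPM in CgA-KO replicates 1, 2 and 3, in the order of Plin4 among WT livers and in another order among CgA-KO livers. In bulk tissue, fewer cells of a type and less RNA per cell cannot be told apart, and the part of these cell types in the storage genes was not tested.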

How the data were processed

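Poly(A) RNA was sequenced from livers of 3 mice of each genotype. The authors quantified reads at the transcript level with Salmon 1.4.0 against the GRCm38 transcriptome and deposited whole-number counts per gene symbol, unscaled. The step from transcripts to genes is not given in the sources used here. All 6 columns were mapped to samples. Rows that repeated a symbol (78) were kept apart, and none was a member. Replicates differed by more than sampling noise (chi-square per degree of freedom 29.9 to 190.3).

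The counts were fitted in edgeR 4.0.16 (R 4.3.3) with filterByExpr (minimum count 10), TMM, and robust quasi-likelihood fits of genotype without covariates. Standard errors were obtained from the log2 fold change and its F statistic, and intervals from those errors. Ratios used a pseudocount of 0.5. Exon lengths and coordinates come from GENCODE M21 (GRCm38). Alternatives were DESeq2 1.42.0, limma-voom 3.58.1, 2 scalings, 2 filters, a threshold of 0.01, a replicate block and leaving out each library. Scripts were tested on simulated data. With 3 against 3 simulated libraries edgeR's test recovered 72.6% of 4-fold and 17.2% of 2-fold changes, so most 2-fold changes were missed. Besides the 10 members, genes of the fixed lists were named if called, or as the 2 with the smallest p in lists with under 2 calls; 1 such gene is not reported here. Members and lists were chosen with earlier results of these data known. Raw reads were not analysed here.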

Additional observations from a re-analysis of the deposited data

How the results depend on the processing

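The number of storage genes called was 0 with TMM and edgeR, 3 with DESeq2 (1 higher, 2 lower) and 1 with the replicate block, and 0 to 1 with each library left out; the other alternatives gave 0. Called genes overall numbered 1726, 2592 with DESeq2, 360 at an adjusted p under 0.01 and 394 (without WT replicate 3) to 2126 (without WT replicate 1) with a library left out. Triglyceride handling genes called numbered 7, 13 with DESeq2 (1 higher), 2 at the stricter threshold and 2 to 7 with a library left out, and clock and fasting genes 9, 12 with DESeq2, 5 at the stricter threshold and 5 to 11 with a library left out. The ratio of Cidec to Cideb ran from -1.46 to 0.12 with a library left out. The log2 fold change of Dgat1 (-0.03) turned to 0.24 (library size), 0.029 (upper quartile), 0.0048 (10 counts in every library), 0.01 (without WT replicate 3) and 0.14 (without CgA-KO replicate 1) and ran from -0.073 to 0.14 with a library left out, and that of Cideb turned to 0.043 (library size). Whether replicate numbers pair the livers is not stated in the sources used here. Deviations of libraries with the same number correlated at 0.20, 0.01 and -0.07, and those with different numbers from -0.26 to 0.23. Deviations from a mean of 3 livers constrain each other, so these correlations cannot decide on pairing. With the replicate block Dgat2 was called (log2 fold change -0.94, adjusted p = 0.0469), and 1498 genes were called in all. For the ratios the block can change only the exact permutation p, which went from 0.1 to 0.25 for Dgat2 to Dgat1 and from 0.2 to 0.25 for G0s2 to Pnpla2 (0.25 is the smallest p that 3 pairs allow). For Dgat2 to Dgat1 both 0.1 and 0.25 are the smallest p that the respective form of the test allows. The cause of the other shifts was not tested. All members had over 100 counts in each library, and 3 livers per genotype limit the precision.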

Other observations

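ATGL has a further inhibitor, the product of Hilpda, which was picked out here after its values were seen. Hilpda was at 2.15, 1.91 and 1.74 CPM in WT and at 4.55, 2.73 and 5.38 CPM in CgA-KO replicates 1, 2 and 3, so every CgA-KO liver lay above every WT liver (log2 fold change 1.13, edgeR adjusted p = 0.0688). The inhibitor genes G0s2 and Hilpda thus lay on opposite sides of 0, and DESeq2 called both, while edgeR and limma-voom called neither. Abhd5, which encodes the activator of ATGL, overlapped between genotypes at 25.9 ± 4.81 CPM in WT livers against 20.6 ± 5.46 CPM in CgA-KO (log2 fold change -0.33, edgeR adjusted p = 0.387).

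Pparg, a further nuclear receptor gene of the regulator list and one tied to fat storage, was at 12.9 ± 1.99 CPM in WT livers against 8.85 ± 1.57 CPM in CgA-KO (log2 fold change -0.54, edgeR adjusted p = 0.149). The genotypes did not overlap in Pparg but nearly met, at 10.63 CPM in WT replicate 3 and 10.53 CPM in CgA-KO replicate 3. Ppargc1a, the gene of a coactivator of oxidative metabolism, was at 10.5 ± 2.81 and 15.6 ± 1.90 CPM without overlap (0.58, edgeR adjusted p = 0.149). Both were also chosen after their values were seen.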
